A study of Mus musculus with 4 samples.

Results

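The 8 genes examined here mark glia, neural progenitors and cells that leave the neural crest, and were read out in mouse embryonic fibroblasts (MEFs), the connective tissue cells that grow out when an embryo is dissociated. They are Gpm6b, Fabp7, S100b, Gfap, Nes, Mbp, Ngfr and Erbb3. Every array probe whose gene name in the scanner files was one of these was taken, which gave 8 of 27745 gene names, 19 of 41174 gene probes and 55 spots on each array. No further probe received a member's name when the target accessions were looked up in RefSeq. These genes were chosen by lineage and selected on their log2 ratios of knockout over WT in these same arrays, so their differences between genotypes are given as a description, with no test.

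RNA of MEFs lacking cyclin G1 (G1KO, genotype CycG1-/-) and of MEFs lacking cyclin G2 (G2KO, genotype CycG2-/-) was set against RNA of wild-type (WT) MEFs, each knockout against a WT of its own (CycG1+/+ or CycG2+/+). Per the study's methods, the MEFs came from mid-gestation embryos and the Ccng1 allele lacked all protein coding exons. The labels gave C57BL/6J as the strain of all cultures, while the source names of the G2KO pair read C57BL/7J. Cells were untreated and in logarithmic growth. Each comparison held 2 two-colour arrays of the same RNA pair with the dyes exchanged, so a comparison was 1 culture against 1 culture, no difference could be tested, and the SD given after each mean measured technical spread between 2 arrays. How many embryos a culture held is not given in the sources used here.

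Both Ccng1 probes were lower in G1KO, by log2 -6.67 ± 0.13 and -4.96 ± 0.08 (SD, n = 2 arrays). In RNA labelled G2KO the same Ccng1 probes were higher than in its WT, by 2.67 ± 0.03 and 2.49 ± 0.04. The single Ccng2 probe stood at 0.09 ± 0.27 in RNA labelled G2KO. It read 0.28 on the array that carried that RNA in Cy5 and -0.10 on the swapped array, so this probe did not bear out the label. The study reported genotyping its G2KO MEFs by RT-PCR with Ccng2 primers. Whether the array probe lies within the deleted part of Ccng2 is not given in the sources used here. This RNA is called the RNA labelled G2KO throughout. Between 25366 and 27757 of 43379 gene spots were well above background per channel. The median log2 ratio of all tested probes was -0.00 in the G1KO comparison and -0.01 in the other. Xist, the transcript that coats the inactive X chromosome, was higher in both knockout RNAs (7.54 ± 0.43 and 7.24 ± 0.46), and the Y-linked Eif2s3y was at least 82.4-fold and 51.3-fold lower. Each knockout culture therefore also differed from its WT in sex-linked transcripts. The study attributed the Xist rise to G1KO and G2KO MEFs being of female origin.

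As background, glia wrap, feed and insulate neurons. Schwann cells, the glia of peripheral nerves, descend from the neural crest, a migratory population that leaves the dorsal neural tube and also yields melanocytes and part of the connective tissue of the head. Nes encodes nestin, an intermediate filament of dividing progenitors, and Gfap the intermediate filament of astrocytes. Gpm6b encodes a membrane glycoprotein of the myelin proteolipid family and Mbp encodes myelin basic protein. S100b is a calcium-binding protein of astrocytes and Schwann cells, and Fabp7 is a fatty acid binding protein of radial glia. Ngfr encodes a neurotrophin receptor that marks migrating neural crest cells, and Erbb3 the neuregulin receptor on which the Schwann cell lineage depends. Several of these genes are also active outside the nervous system, so none of them alone names a cell type.

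The array files hold no probe sequences. RefSeq promoter windows (build GRCm38.p6) were found for 6 of the 8 genes, and those of the 3 genes with probes called higher are shown, because Gpm6b and Nes were higher in both knockout RNAs and S100b in G1KO alone. Each line gives the 250 bases before the transcription start on the plus strand, with matches to the motifs searched in capitals.
Gpm6b: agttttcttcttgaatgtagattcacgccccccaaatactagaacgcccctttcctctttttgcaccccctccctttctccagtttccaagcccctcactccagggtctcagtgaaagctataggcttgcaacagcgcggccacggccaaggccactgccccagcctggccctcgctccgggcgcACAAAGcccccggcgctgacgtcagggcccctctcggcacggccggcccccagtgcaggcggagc
Nes: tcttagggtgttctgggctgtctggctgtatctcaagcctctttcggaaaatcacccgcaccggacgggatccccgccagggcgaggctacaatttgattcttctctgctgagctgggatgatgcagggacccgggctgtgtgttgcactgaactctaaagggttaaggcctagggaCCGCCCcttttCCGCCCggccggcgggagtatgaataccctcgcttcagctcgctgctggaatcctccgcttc
S100b: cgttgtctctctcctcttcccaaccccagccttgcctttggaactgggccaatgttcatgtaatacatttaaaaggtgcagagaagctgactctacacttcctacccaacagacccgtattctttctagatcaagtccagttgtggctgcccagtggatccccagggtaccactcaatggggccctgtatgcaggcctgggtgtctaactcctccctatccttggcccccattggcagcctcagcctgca
The windows lie at chrX:166238693-166238942, chr3:87970843-87971092 and chr10:76253586-76253835, each on the plus strand and in front of its gene. The motifs searched, on both strands, were ACAATG and ACAAAG (cores bound by SOX proteins), the octamer ATGCAAAT, the GC box GGGCGG and the TATA box TATAAA. The Gpm6b window held 1 ACAAAG, 65 bases before the start, a motif found in 16.5% of 32851 windows of this length. The Nes window held 2 GC boxes, 73 and 62 bases before the start and read as CCGCCC on the strand shown, and 32.7% of all windows held at least 1. No listed motif lay in the S100b window. By base composition, the Gpm6b and Nes windows held 15 CpG each with 63.2% and 58.8% G and C, and the S100b window 2 CpG with 53.6%, beside medians of 6 CpG and 52.4% over all windows. A match is a run of letters and was not read as a binding site.

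A probe was tested when it was well above background on both arrays in at least 1 of the 2 genotypes, and was called when its log2 ratio of knockout over WT reached 1 (2-fold) in the same direction on both arrays. In the G1KO comparison 9 of the 19 probes, from 7 genes, could be tested. Of these, 3 were higher (Gpm6b, S100b, Nes), 3 were lower (2 of Mbp, 1 of Erbb3) and 3 were not called, while 1.99% of all 25541 tested probes were higher and 3.80% lower. In RNA labelled G2KO 6 probes of 5 genes could be tested. There 2 were higher (Gpm6b and Nes), 0 lower and 4 not called, beside 2.31% higher and 4.06% lower of 25430 probes. Since the genes were picked for these differences, nothing is read from the comparison of their shares with those of all probes. Members nearest the threshold were the Erbb3 probe at -1.28 inside it, and Mbp at -1.08 (G2KO) and Fabp7 at 0.84 (G1KO) outside it. Another 9 probes were tested in neither comparison.

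**Figure D1:**
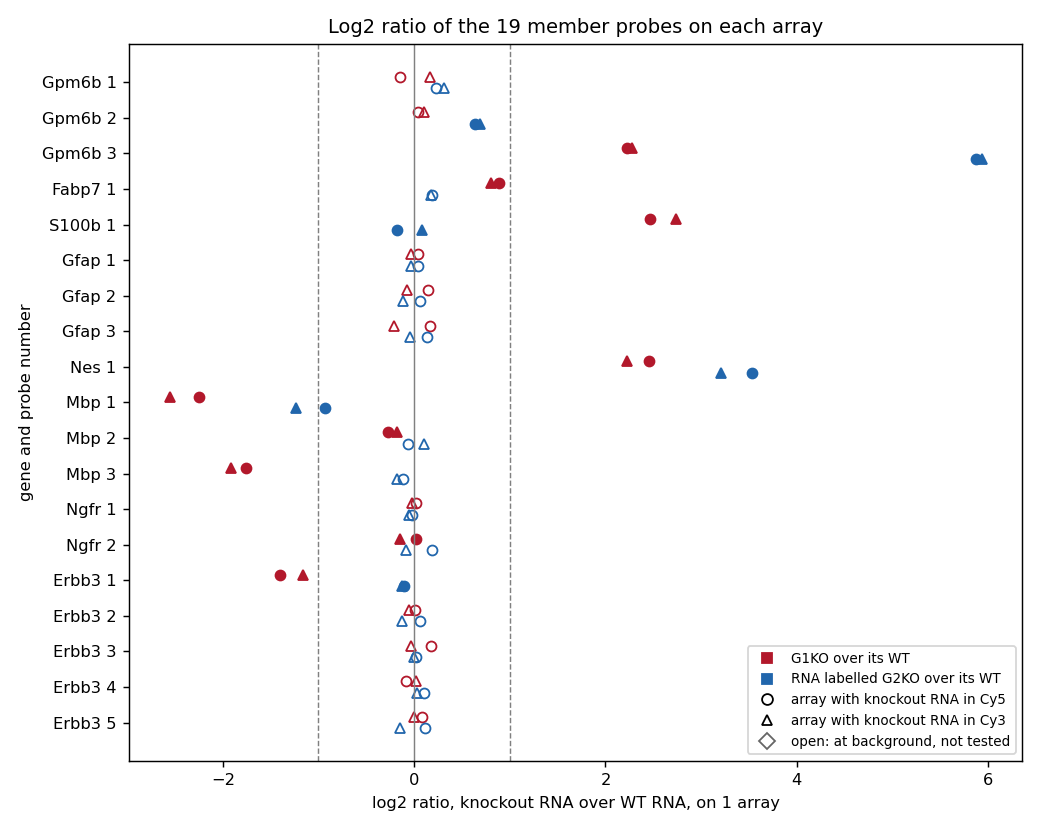
Log2 ratio of knockout over WT RNA for each of the 19 probes (rows, numbered within a gene along the plus strand) on each array, with the G1KO comparison in red and the RNA labelled G2KO in blue. Circles are arrays with the knockout RNA in Cy5, triangles the swapped arrays, open symbols probes at background, and dashed lines the 2-fold threshold. Gpm6b probe 3 reached 2.25 and 5.90 and Nes 2.34 and 3.37 as means of 2 arrays, and Mbp probes 1 and 3 fell in G1KO.

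Probes are numbered within each gene along the plus strand of build mm8, the build of the array design. Levels are log2 intensities of single channels after normalisation, which include the added offset of 50. Values of an array pair are given with the knockout RNA in Cy5 before the swapped array. A level of one probe was not set against that of another, since probes differ in how brightly they bind.

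The intermediate filament gene Nes was higher in both knockout RNAs. Its probe (chr3:88066313-88066372, plus strand) is printed 10 times on each array. In G1KO the level was 11.28 in Cy5 and 11.11 in Cy3, against 8.89 and 8.82 in its WT. The RNA labelled G2KO read 14.03 and 14.01, against 10.80 and 10.49. No level of a knockout overlapped that of its own WT. The log2 ratios were 2.46 and 2.22 in G1KO (2.34 ± 0.17, 5.07-fold) and 3.54 and 3.21 in RNA labelled G2KO (3.37 ± 0.23, 10.4-fold). On unprocessed spots, the mean brightness in Cy5 was 4151 for G1KO and 725 for its WT, and 24410 and 2505 in the other pair.

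The repeated spots show the precision within an array. Nes spots ran from 2.41 to 2.53 and from 2.15 to 2.31 on the G1KO arrays, and from 3.46 to 3.59 and from 3.10 to 3.28 on the others. On either pair the spots of the array with knockout RNA in Cy5 all lay above those of the swapped array, so the difference between the arrays exceeded the spread among spots. Dye and array cannot be told apart in that difference. The 2 WT cultures differed as well: the Nes level was 1.79 higher in the WT of G2KO than in the WT of G1KO, and the WT of G2KO lay only 0.55 below G1KO. These last levels come from different arrays, and differences between array spots add to them.

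Gfap, the astrocyte filament, was not well above background in any channel. This held for all 3 Gfap probes (chr11, minus strand), including 1 printed 10 times, whose spots ran from -0.22 to 0.26 over the 4 arrays. No Gfap difference could be measured at this brightness.

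**Figure D2:**
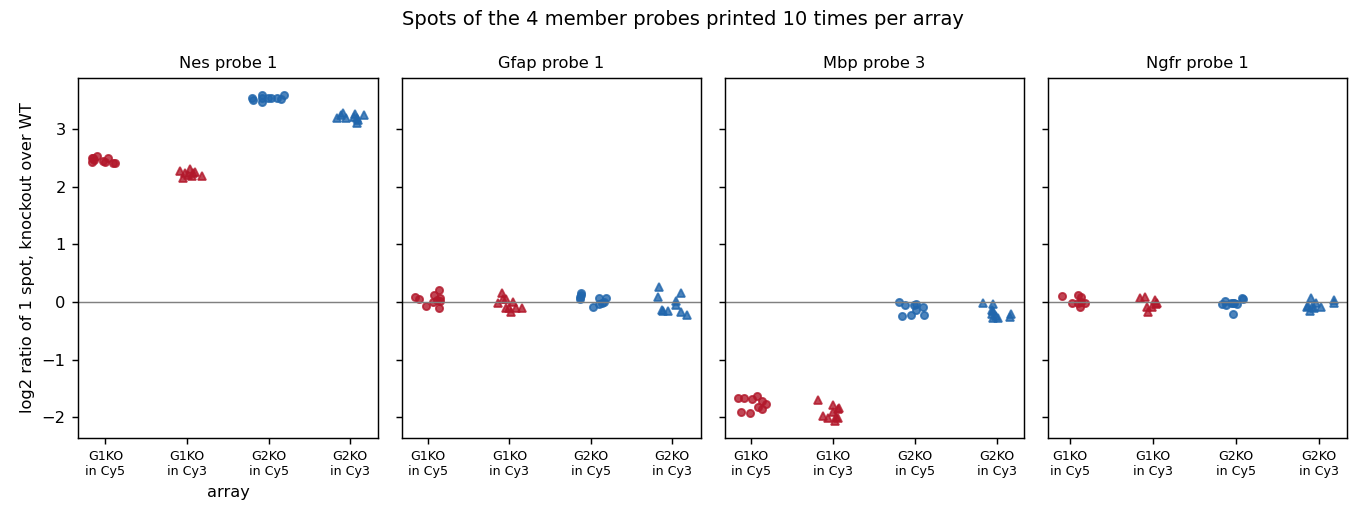
Log2 ratio of knockout over WT on each spot (points, spread sideways for clarity) of the 4 probes printed 10 times, by array, without spots the scanner software marked as outliers. Nes spots ran from 2.15 to 2.53 in G1KO and from 3.10 to 3.59 in RNA labelled G2KO, Mbp probe 3 was low on the G1KO arrays alone, and Gfap and Ngfr spots lay around 0.

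Gpm6b, the proteolipid family gene, gave the largest ratio of all member probes. Probe 3 (chrX:161732904-161732963, plus strand) read 8.87 in Cy5 and 8.65 in Cy3 in G1KO and 6.37 and 6.65 in its WT. The RNA labelled G2KO read 13.55 and 13.50, against 7.56 and 7.68. Both knockout RNAs thus lay above both WT RNAs, with no overlap. The ratios were 2.22 and 2.28 in G1KO (2.25 ± 0.04, 4.76-fold), and 5.87 and 5.93 in RNA labelled G2KO (5.90 ± 0.04, 59.8-fold), where the probe ranked 4 of 25430 by rise. Unprocessed brightness in Cy5 was 16954 for the RNA labelled G2KO, 669 for G1KO, 233 for the WT of G2KO and 86.4 for the WT of G1KO.

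The WT of G1KO was close to background on this probe, and the ratio depended on the processing. In G1KO it was 2.84 with an offset of 16 and 2.54 with no background correction. The scanner's own log ratio, which differs in background subtraction and in dye normalisation, put G1KO at 3.84 and the RNA labelled G2KO at 6.59. Gpm6b lies on the X chromosome, and Xist moved with it in both comparisons (above). The part of the sex-linked difference in the Gpm6b result was not tested. Gpm6b probes 1 and 2 (chrX:161717238-161717297 and chrX:161717923-161717982), designed on other cDNA records, behaved differently. Probe 1 was at background in all 4 RNAs. Probe 2 was above background in RNA labelled G2KO alone, at least 1.55-fold higher than its WT (0.63 and 0.68), which was short of the 2-fold threshold. With the scanner's log ratio this probe stood at 4.05 and was called.

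**Figure D3:**
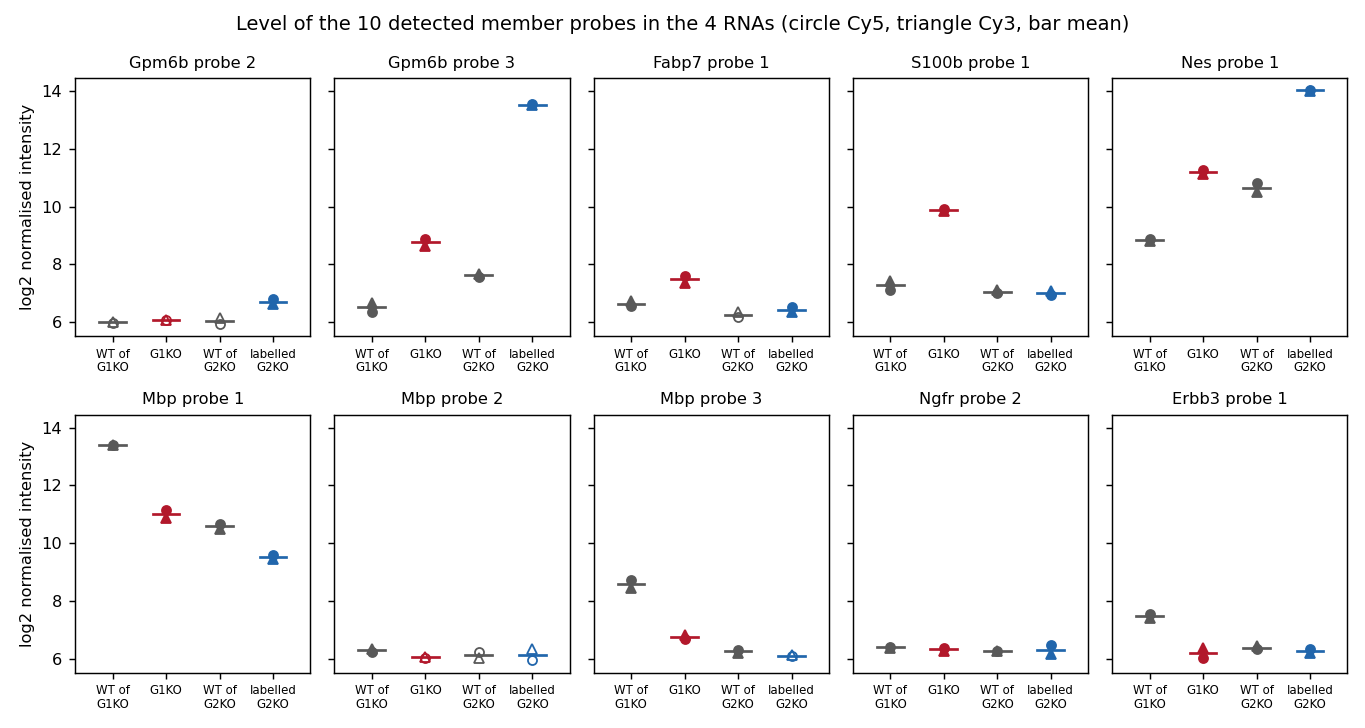
Log2 normalised intensity of the 10 probes that could be tested in at least 1 comparison, in each of the 4 RNAs, with circles for Cy5, triangles for Cy3, bars for the mean of 2 arrays and open symbols where neither array was above background. Gpm6b probe 3 and Nes were highest in RNA labelled G2KO, S100b and Fabp7 in G1KO, and Mbp probes 1 and 3 and Erbb3 probe 1 in the WT of G1KO.

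Mbp, the myelin basic protein gene, moved the other way. Probe 1 (chr18:82692965-82693024, plus strand) read 11.14 and 10.86 in G1KO and 13.41 and 13.39 in its WT. The ratio was -2.40 ± 0.22, or 5.28-fold lower, and the levels did not overlap. Probe 3 (chr18:82719791-82719850), designed on another Mbp transcript and printed 10 times, read 6.68 and 6.81 in G1KO and 8.73 and 8.44 in the WT. It gave -1.84 ± 0.11, or 3.57-fold lower, with spots from -2.07 to -1.62. Both probes thus fell in G1KO. Probe 2, made to join stretches at chr18:82707302-82709606, was above background in the WT of G1KO alone and at least 1.17-fold lower in G1KO, which was not called. With the scanner's log ratio, probe 3 stood at -2.88 and probe 2 at -1.71, which was called.

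In RNA labelled G2KO, Mbp probe 1 was 9.58 and 9.45 against 10.68 and 10.51 in its WT. Its ratios of -0.93 and -1.23 (-1.08 ± 0.21) fell on either side of the threshold, and it was not called. Probe 3 could not be tested there, since it was above background on no array of this RNA and on 1 of 2 arrays of its WT. The WT cultures stood further apart on probe 1 than either knockout stood from its WT: it was 2.81 higher in the WT of G1KO than in the WT of G2KO. G1KO lay 0.41 above the WT of G2KO. From high to low, the order on probe 1 was the WT of G1KO, G1KO, the WT of G2KO and the RNA labelled G2KO, with no overlap between neighbours.

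S100b, the calcium-binding protein, was higher in G1KO. Its probe (chr10:75703680-75703739, plus strand) read 9.90 and 9.86 in G1KO and 7.12 and 7.43 in the WT. The ratios of 2.47 and 2.74 gave 2.60 ± 0.19, or 6.07-fold, and 3.36 with the scanner's log ratio. In RNA labelled G2KO the levels of 6.94 and 7.08 overlapped those of its WT, 7.00 and 7.12, and the ratio of -0.05 ± 0.19 changed sign between the dyes. S100b in G1KO also lay 2.82 above the WT of G2KO, and the WT cultures were 0.22 apart. Whether the 2 comparisons differ for this gene was not tested, with 1 culture per genotype.

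Fabp7 (chr10:57476648-57476707, plus strand), the fatty acid binding protein, was brightest in G1KO, at 7.61 and 7.36 against 6.56 and 6.73. Its ratios of 0.88 and 0.80 (0.84 ± 0.06) missed the threshold. They reached it, at 1.15, with an offset of 16 and, at 1.58, with the scanner's own ratio, which the series table repeats (1.59). In the other pair Fabp7 was above background on 1 of 2 arrays of the RNA labelled G2KO and on no WT array, so it was not tested.

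Of the receptors, Erbb3 was lower in G1KO on 1 of its 5 probes. Probe 1 (chr10:127970642-127970701, minus strand) read 6.02 and 6.39 in G1KO and 7.55 and 7.42 in its WT, and its ratios of -1.40 and -1.16 gave -1.28 ± 0.17, or 2.43-fold lower. In RNA labelled G2KO, above background on 1 of 2 arrays, the ratio was -0.12 ± 0.02. This probe was designed on a predicted transcript, and the other 4, designed on the reference Erbb3 transcript, were at background in all 4 RNAs. Erbb3 thus rests on a single probe that its companions did not bear out, and its G1KO ratio moved to -2.97 with the scanner's ratio. The WT cultures were 1.09 apart on it, and G1KO and the RNA labelled G2KO overlapped.

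Ngfr was faint. Probe 2 (chr11:95390313-95390372, minus strand) gave -0.06 in G1KO, where it was above background on 1 of 2 arrays, and the levels of the 4 RNAs overlapped from each to the next in their order. Ngfr probe 1, printed 10 times, was at background, with spots from -0.20 to 0.12.

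**Figure D4:**
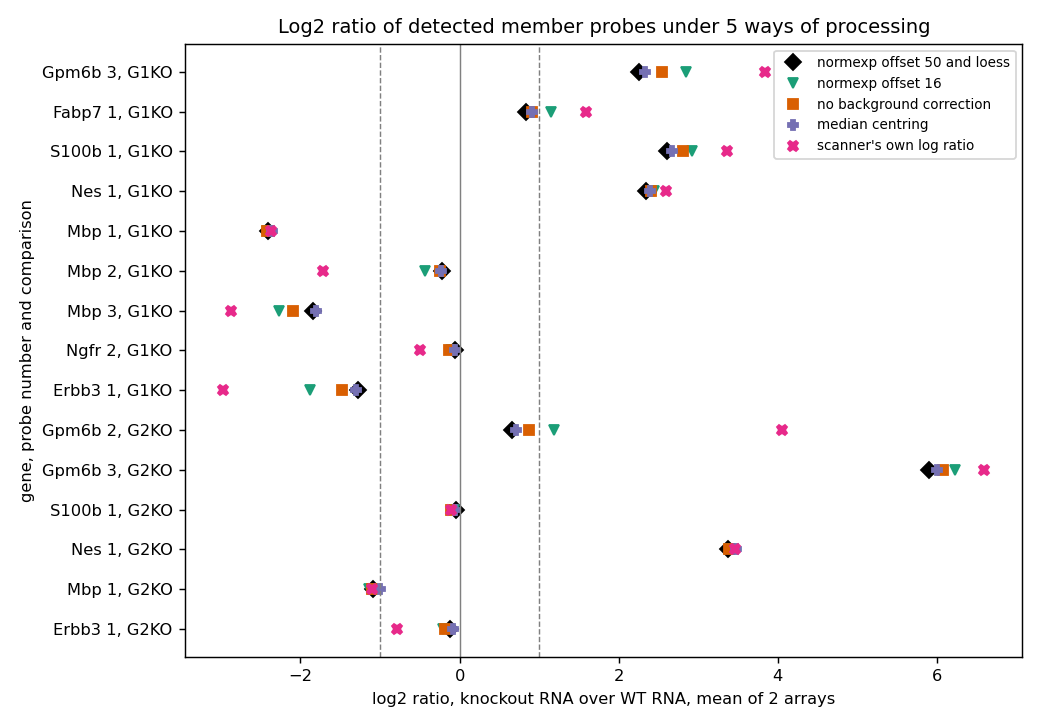
Mean log2 ratio of knockout over WT over 2 arrays (horizontal axis) for the member probes that could be tested (rows, by gene, probe number and comparison) under 5 ways of processing, with dashed lines at the 2-fold threshold. Nes and Mbp probe 1 moved little, while Gpm6b probe 2, Mbp probe 2, Erbb3 probe 1 and, in G1KO, Gpm6b probe 3 moved further, to 4.05, -1.71, -2.97 and 3.84 with the scanner's own log ratio.

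The ligands and partner receptors of Erbb3 and Ngfr were mostly near 0. For each gene, the brightest tested probe was taken. Of 12 listed genes, 11 had a probe and 9 were tested in each comparison. A single gene was called, Bdnf, the brain-derived neurotrophic factor, lower by -1.12 ± 0.03 in G1KO and by -3.77 ± 0.14 in RNA labelled G2KO. Over all genes read in this way, 4.50% of 16591 were lower in the G1KO comparison and 4.81% of 16516 in the other. The neuregulin gene Nrg1 was at 0.12 and -0.20, and the neuregulin receptor genes Erbb2 and Erbb4 were at 0.12 and 0.03 in G1KO and at -0.11 and -0.05 in RNA labelled G2KO. Egfr, for the epidermal growth factor receptor, was at -0.04 and -0.77.

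The neurotrophin gene Ntf3 was at least 1.60-fold higher in G1KO, its WT being at background. In the other comparison it stood at -0.48, above background on 1 of 2 arrays of the knockout RNA. The sorting receptor Sort1, which pairs with Ngfr, was at -0.86 and 0.70. Ntrk2 was above background in the WT of G1KO and on no G1KO array, at least 1.45-fold lower there. Ntrk3 was at 0.30 in the other comparison, with its WT above background on 1 of 2 arrays, and Nrg2 had no probe of that name. None of these passed the 2-fold threshold. The list medians were -0.04 and -0.20, beside -0.00 and -0.02 over all genes.

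Other glial genes did not move as a block. Of 24 on the array 15 were tested in each comparison, with 2 higher and 4 lower in G1KO, 1 higher and 2 lower in RNA labelled G2KO, and medians of -0.10 and -0.07. Over all genes 2.46% were higher in the G1KO comparison and 2.74% in the other. The summed intensity of the glial list was lower in both knockout RNAs. It was 14805 to 15196 in G1KO and 40972 to 43886 in its WT. In RNA labelled G2KO it was 20375 to 21011, against 30321 to 30466 in its WT. Gpm6a, the closest relative of Gpm6b, was lower in G1KO by -6.19 ± 0.17, opposite to Gpm6b, and was not tested in the other comparison. Slc1a3, the glial glutamate transporter, was 3.12 ± 0.07 higher in G1KO and changed by -4.19 ± 0.02 in RNA labelled G2KO. Also called in G1KO were Pou3f1, a regulator of Schwann cell maturation, at -2.84, the gap junction gene Gja1 at -1.85, Egr2, a regulator of myelin genes, at 1.65, and the proteoglycan gene Cspg4 at -1.03. Cspg4 was at -2.20 in RNA labelled G2KO, where the water channel gene Aqp4 was at least 3.72-fold higher on 1 of 3 tested probes. Slc1a3 had 2 of 3 tested probes called in each comparison. Cspg4 had 1 of 3 called in G1KO and 2 of 3 in RNA labelled G2KO. Of the defining markers of glia, Olig1, Olig2, Mog, Mobp and Cdh19 were above background on both arrays of none of the 4 RNAs. Sox10 was above background on both arrays of the WT of G2KO and on 1 of 2 arrays of the RNA labelled G2KO, with a ratio of -0.08 ± 0.02, and was not tested in the G1KO comparison.

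Genes of the neural crest and its melanocyte branch were mixed too. Of 19 on the array, 12 were tested in each comparison, with 2 higher and 1 lower in G1KO and 1 higher and 3 lower in RNA labelled G2KO. Their medians were 0.30 and -0.19. Of all genes, 2.46% were higher and 4.50% lower in the G1KO comparison, and 2.74% and 4.81% in the other. Snai2, a regulator of crest cell migration, was 1.22 ± 0.12 higher in G1KO and at -1.5 ± 0.16 in the other comparison, and the homeobox gene Msx2 was higher in both, at least 2.39-fold in G1KO and by 2.78 ± 0.08 in RNA labelled G2KO. The zinc finger gene Zic1 was at -5.10 in G1KO, above background there on 1 of 2 arrays, and Pax3 and Snai1 were at -2.85 and -1.40 in RNA labelled G2KO. Another tested Pax3 probe was at -0.56 in that RNA and was not called. The melanocyte genes Dct, Tyr and Kit were above background on both arrays of none of the 4 RNAs.

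Neural progenitor genes were called in the higher direction wherever they were called. In RNA labelled G2KO 3 of 7 tested genes were higher and 0 lower, with a median of 0.91, and in G1KO 1 of 5 was higher, with a median of 0.06. The shares of all genes were 2.74% higher and 4.81% lower in RNA labelled G2KO, and 2.46% and 4.50% in G1KO. Sox2, a transcription factor of neural stem cells, was 5.59 ± 0.35 higher in RNA labelled G2KO and was not tested in the G1KO comparison. Notch1, the receptor gene, was higher in both, by 1.46 ± 0.18 and 2.36 ± 0.22, and Fgfbp3 by 1.17 in RNA labelled G2KO. A further tested Fgfbp3 probe was at 0.32 there and was not called. The summed intensity of this list was 8074 to 8178 in RNA labelled G2KO and 1554 to 1560 in its WT. In none of the 4 RNAs were Sox1, Sox3, Pax6, Prom1 or Hes5 above background on both arrays. Neuron genes gave 0 called of 7 in G1KO and 1 of 5 in RNA labelled G2KO (Map2, -1.24, lower on 1 of 3 tested probes). The neuron medians were 0.20 in G1KO and -0.71 in RNA labelled G2KO, beside -0.00 and -0.02 over all genes. Dcx, Rbfox3, Elavl3 and Syp were above background on both arrays of no RNA.

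Markers of other cell types that MEF cultures hold moved beside these genes. All 14 fibroblast markers were above background in 3 RNAs and 13 in RNA labelled G2KO, where Fap was not. In RNA labelled G2KO 7 of the 14 were lower and 0 higher, with a median of -1.13. Among all genes 4.81% were lower there and 2.74% higher. The largest falls were in Pdgfra (-4.63), Postn (-4.19), Thy1 (-3.22) and Col3a1 (-2.90). Another tested probe stood at -0.59 for Pdgfra and -0.65 for Postn, not called, and 2 of 3 Col3a1 probes were lower. The summed intensity of the fibroblast markers in this RNA was 345624 to 498125, against 896141 to 922826 in the WT. In G1KO 3 were higher and 1 lower (Dcn, -4.05, with another tested probe at -0.89). Their median was -0.01, and among all genes 2.46% were higher and 4.50% lower. The summed intensity of the fibroblast markers was also lower in G1KO, at 428775 to 587225, against 690151 to 700254 in its WT. The part of the fibroblast marker shift in the Gpm6b and Nes values was not tested.

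Of 8 markers of mesothelium and epithelium, 7 were tested in G1KO, with 1 higher (Krt19, 2.90) and 4 lower, led by Upk3b (-4.25), Wt1 (-3.04) and Msln (-2.79). Their summed intensity was 52890 to 62072 in G1KO, 176803 to 229781 in its WT, 3942 to 4288 in RNA labelled G2KO and 1867 to 1938 in the WT of G2KO. By these sums this list was brighter in both RNAs of the G1KO pair than in the other pair, as was Mbp probe 1, and its part in the Mbp values was not tested. Smooth muscle markers gave 2 higher of 4 in G1KO (Cnn1 1.57, Myh11 1.03) and 0 called in RNA labelled G2KO. Beside these counts, 2.46% of all genes were higher and 4.50% lower in G1KO, and 2.74% and 4.81% in the other comparison. Skeletal muscle, endothelium and leukocyte markers gave 0 called in either comparison, with 1, 1 and 2 of 4 tested in G1KO and 0, 0 and 1 in RNA labelled G2KO. In RNA of whole cultures, fewer cells of a type and less RNA per cell cannot be told apart.

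The genes with the most similar pattern were found by the distance between the 4 log2 ratios of a called member probe and those of 21126 named probes tested in both comparisons, over 4 arrays. For Nes they were Tbx3 (distance 0.68), Pde1a (0.69) and Col18a1 (0.80), the last at 1.91 in G1KO and 3.60 in RNA labelled G2KO. No probe came close to Gpm6b probe 3, for which the nearest were Cd24a (2.96), Gm6212 (3.09) and Col18a1 (3.29). S100b was nearest to Diaph2 (0.26) and to a pair of Sox11 probes (0.32 and 0.33), Sox11 being a transcription factor of neural progenitors, at 2.69 and 2.76 in G1KO and -0.01 on both probes in RNA labelled G2KO. Mbp probe 1 was nearest to Spint1 (0.26), Endod1 (0.46) and Add3 (0.47), and Erbb3 probe 1 to Zcchc3 (0.13), Cdc42ep2 (0.16) and Prkx (0.16). Mbp probe 3 had no such list, since it was tested in 1 comparison only.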

How the data were processed

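RNA of MEFs was hybridised to 4 two-colour Agilent whole-genome mouse arrays, 2 dye-swapped arrays per comparison, all on 1 slide read in 1 scan. The authors quantified spots with Agilent Feature Extraction (10.5.1.1 per the file headers, 9.1 per the labels). The deposited files hold intensity on a linear scale, as mean brightness of each spot and median brightness around it, with no background subtraction, and log10 ratios of Cy5 over Cy3 that the software had background-subtracted and dye-normalised. The authors' series table holds the same log10 ratios, turned to knockout over WT. The deposited p-value of each log ratio, a single-array error model, was not used.

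In limma 3.58.1 (R 4.3.3), background was corrected by normexp with an offset of 50. Control spots and spots marked as outliers (114 to 203 per array) were left out, arrays were normalised by loess, and spots of a probe were averaged. The offset pulls ratios of faint probes towards 0. Log2 ratios were turned to knockout over WT and averaged over the array pair, which counted as 1 replicate. A probe was above background when over 0.5 of its spots carried the scanner's flag for it. Levels came from the loess values after quantile scaling of average brightness. A bound ("at least") sets the brighter genotype against the higher of the dim probe and the lowest signal well above background.

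With 1 culture per genotype, the spread between cultures could not be measured, and the number of arrays limits only the technical precision. Members and lists were chosen with earlier results of these data known. Named were all member probes, the called genes of each list with the 4 largest sizes, the ligands and partner receptors (some are counted in the list but not reported here by name), and for each called member the 3 nearest probes. List genes were read by their brightest tested probe. RefSeq named 24375 probes through their target accession, 6301 through a current gene symbol and 2426 through a synonym, while 8072 kept the name in the file. Alternatives changed the offset, the background correction, the normalisation, the ratio used, the filter on dim probes, the threshold, the probe rule and the arrays.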

Additional observations from a re-analysis of the deposited data

Results flagged for a closer look

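4 genes of the cell type lists were called in opposite directions in the 2 comparisons, on both arrays of each. Slc1a3 was at 3.12 in G1KO and -4.19 in RNA labelled G2KO (log2 of knockout over WT), Snai2 at 1.22 and -1.5, Krt19, a keratin gene, at 2.90 and -1.40, and Msln, the mesothelial gene mesothelin, at -2.79 and 1.60. With 1 culture per genotype, the difference between the comparisons was not tested for any of them. No member probe was called in opposite directions.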

How the results depend on the processing

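All 8 called member values kept their call and direction in all 7 alternatives that recomputed them (an offset of 16, no background correction, median centring, the scanner's log ratio, the series table and each array alone). Of 7 tested values that were not called, 3 were called in none of these. The exceptions were Fabp7 in G1KO, Mbp probe 2 in G1KO and Gpm6b probe 2 in the RNA labelled G2KO, given above, and Mbp probe 1 in the latter. Mbp probe 1 was called on the swapped array alone, so leaving out 1 array gave 0 to 1 member probes called lower there. S100b in that comparison and Ngfr in G1KO changed sign, to 0.08 and 0.02. The signal over background limits the faint probes most.

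Counts moved more, and the cause was not tested. Median centring gave 295 probes higher and 518 lower in G1KO and 329 and 626 in the RNA labelled G2KO, against 509, 970, 587 and 1032. Of the list genes it gave 6 higher and 7 lower in G1KO and 9 lower in the other, against 11, 11 and 15. The scanner's ratio gave 1248, 1607, 1415 and 1981 probes and 17 list genes higher in G1KO, and the series table held 1245, 1604, 1414 and 1978 with 17. No scaling moved the median of all probes by over 0.1. A 4-fold threshold left 97, 288, 132 and 335 probes, 1 member probe lower in G1KO, and 2, 7, 3 and 9 list genes, in the same order. A 1.5-fold threshold gave 1286, 2055, 1598 and 2117 probes, 1 member probe lower in the RNA labelled G2KO and 23 list genes lower there.

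No paired analysis was possible because the replicate numbers only name the 2 arrays of 1 RNA pair. All arrays lay on 1 slide in 1 scan, which leaves no slide or scan block to fit.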
